A study of Mus musculus with 16 samples.

Results

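Peg10, Peg3, H19, Igf2, Afp, Gpc3 and Meg3 are genes that are known for strong expression in the fetal liver and for low expression in the liver of adult mice. These 7 genes, of 24082 in the table, were described in livers of female C57BL6/J mice aged 9 to 11 weeks. They were chosen by gene symbol after the response of Peg10 to iodomethylcholine and the levels of H19 in these same 16 libraries had been seen, so that the levels and effects of the members are a description. Calls of members are given only as counts or beside an alternative, and nothing is read from them. Each member matched 1 row of the table.

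The study asked what a drug that blocks the gut microbial production of trimethylamine does to ethanol-fed mice. All mice received a Lieber-DeCarli liquid diet, and there were 4 groups of 4 mice. The Pair group was pair-fed the control diet with vehicle, the Pair IMC group the control diet with 0.06% wt/wt iodomethylcholine (IMC, an inhibitor of the bacterial choline TMA lyase), the EtOH group a diet in which ethanol was raised stepwise to 6% vol/vol over 25 days, with vehicle, and the EtOH IMC group this ethanol diet with 0.06% wt/wt IMC. The labels name no transgene or engineered allele, and the gut bacteria, not the mouse, hold the drug's target. Per the study, mice given ethanol with IMC ate less and weighed less than those given ethanol alone, and the study also marks a difference in body weight between pair-fed mice with and without IMC. Food intake and body weight cannot be told apart from the drug in these comparisons. Libraries 1 to 8 were the Pair IMC and EtOH groups and libraries 9 to 16 the Pair and EtOH IMC groups. Within a diet, the effect of IMC can therefore not be told apart from the numbering of the libraries. The same holds for the effect of ethanol without and with IMC, and for the difference of the IMC effects between the diets. In addition, all pair-fed libraries had even numbers and all ethanol-fed libraries odd ones.

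Between 9632659 and 12601199 reads were assigned to genes in each library. All levels are normalized counts: whole reads scaled to one common depth over the 16 libraries, where 1 read was worth between 0.856 and 1.27. The tissue carried the liver's defining markers: each of the 7 hepatocyte markers was detected in each group, and their summed normalized count was between 960678 and 1802160. The livers were sequenced whole, so that fewer cells of a type and less RNA per cell cannot be told apart.

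The members fall into 3 kinds of gene. Peg10, Peg3, Igf2, H19 and Meg3 are imprinted, which means that only the copy from 1 parent is used: Peg10, Peg3 and Igf2 from the father, and the long noncoding RNAs H19 and Meg3 from the mother. Igf2 encodes a fetal growth factor, Peg10 a protein derived from a retrotransposon and needed for the placenta, and Peg3 a large zinc finger protein. Afp encodes alpha-fetoprotein, the fetal counterpart of serum albumin, and Gpc3 encodes glypican 3, a heparan sulfate proteoglycan of the cell surface that restrains growth. The liver largely silences these genes after birth, and several of them return in regenerating liver and in liver tumours.

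Peg10 lies on chromosome 6 (GRCm38, 4747306 to 4760517, plus strand) and, as a former retrotransposon, still makes its longer protein by slipping back by 1 base while the ribosome reads the RNA. The site is shown because it marks Peg10 as the retrotransposon-derived member. In GENCODE transcript Peg10-202, which is 6667 bases long, the slippery heptamer occurs once, at bases 1477 to 1483. The first reading frame runs over 376 codons from base 371 to a stop that ends at base 1501, and the frame 1 base back runs on for 634 whole codons beyond the heptamer. The 60 bases from 1453 to 1512 of the transcript follow, with the heptamer in capitals.
Peg10 slippage site: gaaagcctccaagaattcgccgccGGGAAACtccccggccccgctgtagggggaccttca

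Peg3 and Afp had the highest levels per length of the members, and their promoters differed in their content of CG pairs. RefSeq promoters on GRCm38.p6 were held for 5 of the 7 members, as 250 bases before and 50 after the gene's start; Peg10 and H19 were not among them. The Peg3 promoter (chr7:6730370-6730669, minus strand) is shown with CG pairs, the sites of DNA methylation by which imprints are kept, in capitals. It holds 13 CG pairs, against a median of 7 in the 32851 promoters of the table. Its letters are shared with the promoter of Usp29, which starts on the opposite strand with 146 bases between the 2 genes, over 263 bases.
Peg3 promoter: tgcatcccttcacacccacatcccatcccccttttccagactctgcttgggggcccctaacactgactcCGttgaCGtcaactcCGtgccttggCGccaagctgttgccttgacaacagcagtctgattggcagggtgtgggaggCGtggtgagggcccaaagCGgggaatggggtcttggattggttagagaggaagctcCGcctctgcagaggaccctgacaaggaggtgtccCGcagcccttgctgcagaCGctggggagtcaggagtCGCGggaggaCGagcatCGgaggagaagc
The Afp promoter (chr5:90490464-90490763, plus strand) holds only 3 CG pairs. Capitals mark a TATAAA box and a stretch of 13 bases that opens with GTTA and closes with TAAC. The RefSeq start, on which the window is set, lies 23 bases before the start in GENCODE. The box opens 7 bases before the RefSeq start and 30 before that of GENCODE, and the longer stretch 39 and 62 bases before them. Letters of the second kind, GTTA and TAAC with 5 bases between them, are the ends of a site for HNF1, a transcription factor of hepatocytes. Searched on both strands, stretches of this form occurred in 0.332% and TATAAA in 13.6% of the promoters. The 2 motifs do not overlap in Afp, and a match is a description of the letters only.
Afp promoter: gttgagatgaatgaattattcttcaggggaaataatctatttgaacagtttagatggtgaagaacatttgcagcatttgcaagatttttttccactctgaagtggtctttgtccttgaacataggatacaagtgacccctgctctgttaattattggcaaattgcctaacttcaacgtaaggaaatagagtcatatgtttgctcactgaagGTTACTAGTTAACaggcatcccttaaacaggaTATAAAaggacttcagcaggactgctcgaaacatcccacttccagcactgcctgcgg

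The other members lie, on GRCm38, on chromosome 7 (Peg3, 6703892 to 6730431; H19, 142575529 to 142578143; Igf2, 142650766 to 142666816; all on the minus strand), chromosome 5 (Afp, 90490737 to 90508907, plus), chromosome X (Gpc3, 52272426 to 52613950, minus) and chromosome 12 (Meg3, 109541001 to 109571726, plus). H19 contains the microRNA gene Mir675. Igf2 overlaps its antisense gene Igf2os and the protein-coding gene Gm49394 on its own strand, Afp and Gpc3 overlap antisense genes, and Meg3 overlaps Gm26906 on the other strand, so that some reads of these members could come from an overlapping gene. No gene of the annotation overlaps Peg10 or Peg3.

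Compared per length, as normalized counts per kb of exon, the mean levels over the 16 libraries ran from Peg3 (32.6) over Afp (21.5), H19 (11.5), Peg10 (5.70), Gpc3 (4.27) and Meg3 (0.798) to Igf2 (0.693). The ranges of neighbours in this order overlapped: Peg3 lay between 19.4 and 53.9 per kb and Afp between 14.7 and 32.5, and Meg3 lay between 0.163 and 1.49 and Igf2 between 0.180 and 1.65. The mean of H19 rested on 2 libraries, described below, and its lowest library was at 1.39 per kb. Alb, the albumin gene beside Afp, was 21311 times as high per kb as Afp. In total, Igf2 had 65 reads over the 16 libraries and was at 3 reads or fewer in 10 of them, Gpc3 had 185 reads and Meg3 had 235. No fetal liver was among the samples, so the fold between fetal and adult levels was not measured here.

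**Figure D1:**
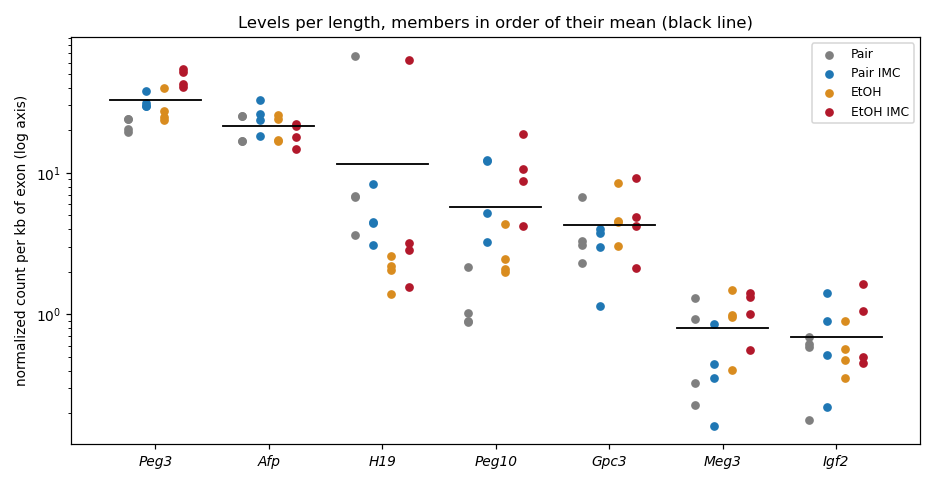
Normalized count per kb of exon (log axis) of the 7 members in the 16 libraries, 1 point per library, coloured by group, with the mean over 16 libraries as a black line. The mean of H19 (11.5) sits above 14 of its 16 points, and Meg3 and Igf2 sit below the other members' means.

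On the log2(value + 1) scale, Peg10 had the largest difference between mice with and without IMC of the 6 members tested. As a ratio of group means it was 6.64 in pair-fed and 3.89 in ethanol-fed mice, where the ratio of H19 (8.53) was larger and rested on library 11. Its normalized counts were 6.76, 5.93, 5.93 and 14.4 in Pair, from 5 to 14 reads per library. They were 34.9, 80.7, 82.1 and 21.6 in Pair IMC. Each Pair IMC library was above each Pair library, and the highest Pair value (14.4, library 16) stood apart from the other 3. In EtOH the counts were 29.0, 14.05, 16.3 and 13.3, and in EtOH IMC they were 71.3, 28.3, 124.8 and 58.3. These groups touched at 1 point, where EtOH library 1 (29.0) was just above EtOH IMC library 11 (28.3). The group means were 8.26 ± 4.12 (SD, n = 4) in Pair, 54.8 ± 31.1 in Pair IMC, 18.1 ± 7.35 in EtOH and 70.7 ± 40.3 in EtOH IMC.

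On the log2(value + 1) scale, which understates the change of genes with few reads, the IMC difference of Peg10 was 2.48 (SE 0.45) in pair-fed and 1.79 (SE 0.45) in ethanol-fed mice. The 2 IMC effects differed by -0.69 (SE 0.64), less than 2 standard errors. The ethanol difference was 1.07 (SE 0.45) without IMC, where the groups overlapped only through Pair library 16 (14.4), and 0.38 (SE 0.45) with IMC, where the groups overlapped widely.

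Peg3 was the member with the most reads, between 228 and 826 per library. Its normalized counts were 322.2, 259.1, 270.4 and 318.0 in Pair, and 398.7, 506.1, 397.2 and 413.8 in Pair IMC. Each Pair IMC library was above each Pair library. The counts were 534.9, 316.6, 332.5 and 367.0 in EtOH, and 718.5, 566.1, 688.4 and 537.0 in EtOH IMC. The EtOH IMC group lay wholly above the EtOH group, by 2.14 counts between the nearest libraries, and wholly above Pair IMC, whereas EtOH and Pair overlapped. The means were 292.4 ± 32.3 (SD, n = 4), 428.9 ± 52.0, 387.8 ± 100.3 and 627.5 ± 89.3 in these 4 groups.

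The IMC difference of Peg3 was 0.55 (SE 0.15) on the log2 scale in pair-fed and 0.71 (SE 0.15) in ethanol-fed mice, so that it was smaller than that of Peg10 in both diets. Its ethanol difference was 0.38 (SE 0.15) without and 0.54 (SE 0.15) with IMC. Peg3 was highest in the group with both ethanol and the drug, and the difference between the IMC effects, 0.16 (SE 0.21), was smaller than its standard error.

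**Figure D2:**
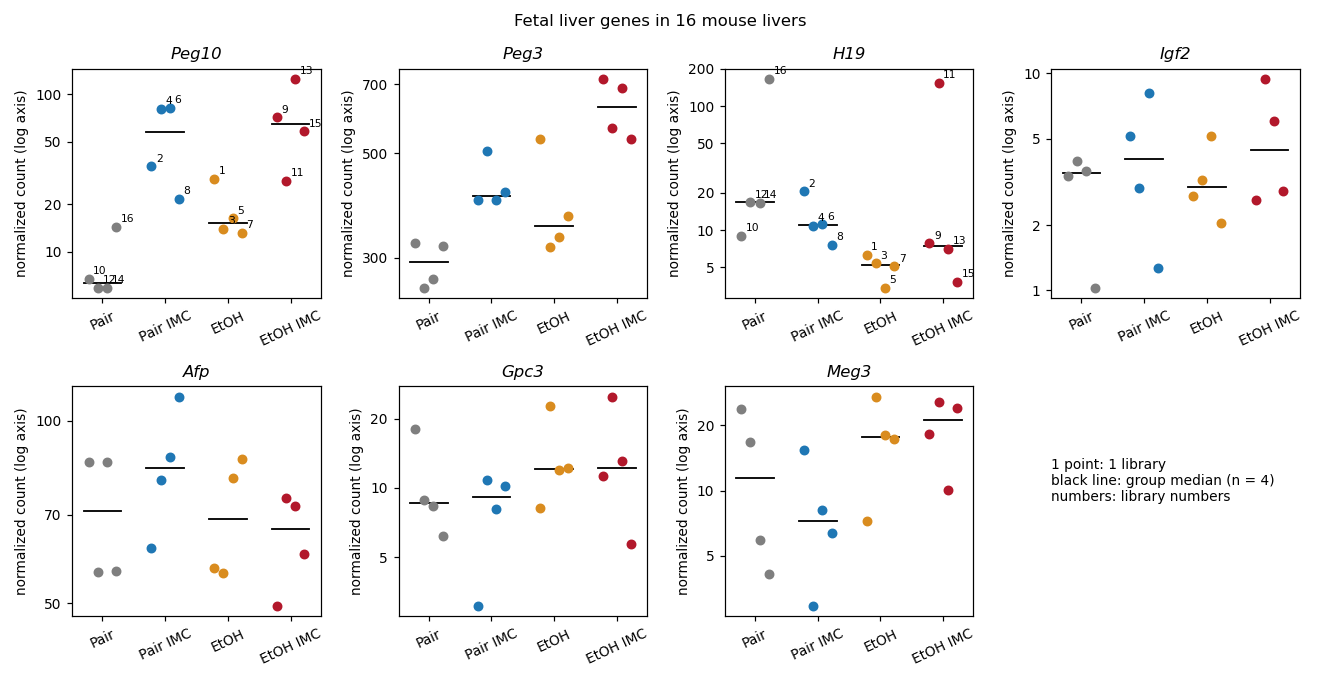
Normalized counts (log axis) of the 7 members in each library, with 1 point per library, the group median as a black line and the library numbers given for Peg10 and H19. Peg10 of Pair IMC (21.6 to 82.1) lies above Pair (5.93 to 14.4), and H19 stands apart in library 16 (165.7) and library 11 (154.2).

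Of the 6 members that passed the filter on low values, 2 (Peg10 and Peg3, both higher) had an adjusted p under 0.05 in limma for IMC in pair-fed mice, where 9.49% of the 12543 genes tested did. The same 2 members did so for IMC in ethanol-fed mice, where 21.5% of all genes did. None did for ethanol without IMC (11.9% of all genes, and 3490 genes at an unadjusted p under 0.05), and 1, Peg3, did for ethanol with IMC (16.4%). None did for the difference between the IMC effects, where 1.11% of all genes were called. Groups that did not overlap were found for 2 of the 7 members for IMC in pair-fed mice (14.3% of all genes tested), 1 for IMC in ethanol-fed mice (25.3%), 1 for ethanol without IMC (19%) and 1 for ethanol with IMC (19.2%). Since these contrasts were known when the members were chosen, nothing is read from these counts. The median log2 difference of the 6 members tested was -0.04 and 0.46 for IMC in pair-fed and ethanol-fed mice and 0.39 and 0.46 for ethanol without and with IMC, and the median over all genes tested was within 0.01 of 0 in each.

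**Figure D3:**
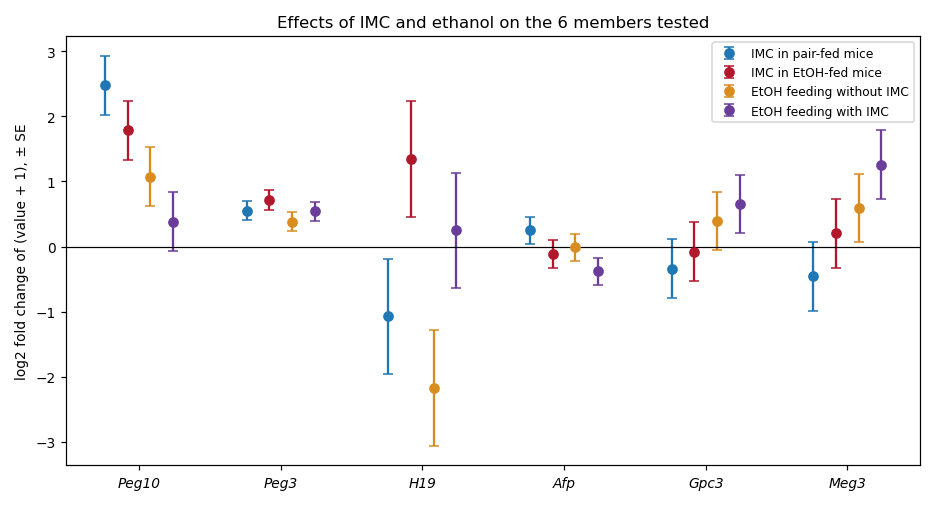
Log2 fold change of (value + 1) with its standard error for the 6 members tested, in 4 comparisons. Peg10 is at 2.48 and 1.79 for IMC, Peg3 is above 0 in all 4 comparisons, and the widest error bars belong to H19 (SE 0.89).

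H19, the maternally expressed RNA next to Igf2, stood apart in 2 libraries of different groups. Its normalized counts were 9.01, 16.8, 16.6 and 165.7 in Pair, and 20.6, 10.8, 11.1 and 7.64 in Pair IMC. They were 6.35, 5.40, 3.43 and 5.10 in EtOH, and 7.83, 154.2, 7.04 and 3.82 in EtOH IMC. Pair library 16 and EtOH IMC library 11 were thus at least 7.50-fold above the highest of the other 14 libraries, whose median was 7.73. Both libraries were given the same weight as the others in the values that follow unless stated.

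With all libraries, the H19 difference was -1.07 (SE 0.89) for IMC in pair-fed mice, 1.35 (SE 0.89) for IMC in ethanol-fed mice, -2.17 (SE 0.89) for ethanol without IMC and 0.25 (SE 0.89) for ethanol with IMC. Without libraries 16 and 11 these were -0.20, 0.23, -1.29 and -0.87, each with a standard error of 0.39. The sign for ethanol with IMC thus turned with 2 libraries. Over 28 alternatives the IMC difference of H19 lay between -2.07 and -0.20 in pair-fed and between 0.23 and 3.47 in ethanol-fed mice, and the ethanol difference between -3.36 and -1.29 without and between -0.87 and 2.17 with IMC. The value of 3.47 came from edgeR without library 15, which called H19 for IMC in ethanol-fed mice and was the 1 alternative of 28 that did so. The EtOH group was the lowest, with each of its libraries (3.43 to 6.35) below each Pair library (9.01 or more), also when library 16 was left out. These values rest on few reads, 4 to 7 per EtOH library and as few as 8 in a Pair library. Library 16 also had the highest summed level of the 6 Kupffer cell and macrophage markers (6018, against 2073 to 4608 in the other 15 libraries), whereas library 11 was at 2580. The lymphoid and hepatocyte sums were also highest in library 16 (309.8 and 1802160) and lowest in library 11 (93.4 and 960678). The summed level of the 5 mesothelial markers was 34.0 in library 16 and 63.4 in library 11, within the range of 30.8 to 144.8 over all libraries. The part of these cells in the H19 values was not tested.

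Igf2, the growth factor gene that shares its enhancers with H19, was close to the limit of detection. Its reads lay between 1 and 4 in Pair, 1 and 8 in Pair IMC, 2 and 6 in EtOH, and 3 and 11 in EtOH IMC. In normalized counts the Pair libraries were at 3.38, 3.96, 3.56 and 1.03, and the Pair IMC libraries at 5.14, 2.95, 8.11 and 1.27. The EtOH libraries were at 2.72, 3.24, 5.14 and 2.04, and the EtOH IMC libraries at 2.61, 9.42, 6.04 and 2.87. All 4 groups overlapped, the filter on low values removed the gene, and a difference between groups was not detectable at this depth. No group had all of its libraries at 3 reads or fewer, so that no bound was needed. Libraries 16 and 11, in which H19 was high, had 1 read and 11 reads of Igf2. The first was the lowest count of all libraries, shared with Pair IMC library 8, and the second the highest.

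Afp was detected with between 52 and 94 reads per library. Its normalized counts were 85.6, 56.4, 85.4 and 56.6 in Pair, and 61.7, 79.8, 87.1 and 109.5 in Pair IMC. They were 57.1, 56.2, 80.6 and 86.7 in EtOH, and 49.6, 74.5, 72.5 and 60.2 in EtOH IMC. All groups overlapped, and the highest library was 2.21 times the lowest, against 21.0 times for Peg10. The differences were 0.25 and -0.12 for IMC in pair-fed and ethanol-fed mice, and -0.01 and -0.38 for ethanol without and with IMC, each with a standard error of 0.21. Alb, 14134 bases from Afp, had an adjusted p between 0.17 and 0.98 in limma in the 4 comparisons, although 6 of the 29 alternatives called it for ethanol with IMC, with the sign of its difference of -0.71.

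Gpc3 and Meg3 were low and variable within groups. The normalized counts of Gpc3 were 18.0, 8.90, 8.30 and 6.17 in Pair, and 3.08, 10.8, 8.11 and 10.2 in Pair IMC. They were 8.16, 22.7, 12 and 12.2 in EtOH, and 11.3, 24.8, 13.1 and 5.73 in EtOH IMC. All groups overlapped, and each of the 4 differences was smaller than 1.5 standard errors, from -0.34 (SE 0.45) for IMC in pair-fed mice to 0.65 (SE 0.45) for ethanol with IMC.

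Meg3, the noncoding RNA of the Dlk1 domain on chromosome 12, was at 23.7, 16.8, 5.93 and 4.12 in Pair, and 15.4, 2.95, 8.11 and 6.37 in Pair IMC. It was at 7.25, 27.0, 18.0 and 17.3 in EtOH, and 18.3, 25.7, 10.1 and 23.9 in EtOH IMC. The EtOH IMC libraries lay toward the upper end and the Pair IMC libraries toward the lower, but the groups overlapped. The ethanol difference was 0.59 (SE 0.53) without and 1.26 (SE 0.53) with IMC, and the IMC difference was -0.46 (SE 0.53) in pair-fed and 0.20 (SE 0.53) in ethanol-fed mice. Dlk1, the paternally expressed partner of Meg3 and a marker of liver progenitors, had 1 read in library 9 and none in the other 15 libraries.

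In pair-fed mice no neighbour of Peg10 that was tested had an IMC difference as large as that of Peg10. In ethanol-fed mice the difference of Gngt1 (-1.96) was larger in size than that of Peg10 (1.79). That of Gngt1 rested on few reads, 4 to 18 per library in EtOH and 1 to 3 in EtOH IMC, so its size is uncertain. Peg10 was chosen with its response to IMC known, so that its size beside its neighbours and its ratio to Sgce are a description. Sgce, an imprinted gene for epsilon-sarcoglycan, starts on the opposite strand 98 bases from Peg10. Its normalized counts were 53.7 ± 21.2 in Pair, 82.8 ± 12.7 in Pair IMC, 85.8 ± 27.9 in EtOH and 92.0 ± 21.0 in EtOH IMC (SD, n = 4). Its IMC difference was 0.67 (SE 0.24) on the log2 scale in pair-fed mice, with an adjusted p of 0.0867 in limma, and 0.12 (SE 0.24) in ethanol-fed mice, with an adjusted p of 0.762. Pair library 16 was high for Sgce as for Peg10 (85.4, against 40.6 to 45.1 in the other Pair libraries), and without it the adjusted p in pair-fed mice was 0.0166, with a difference of 0.91. As a ratio within each library, Peg10 was 0.135 to 0.169 of Sgce in Pair, 0.293 to 1.12 in Pair IMC, 0.181 to 0.247 in EtOH and 0.434 to 1.12 in EtOH IMC. The ratio was thus higher in each library with IMC than in each library of the same diet without it, library 16 included.

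**Figure D4:**
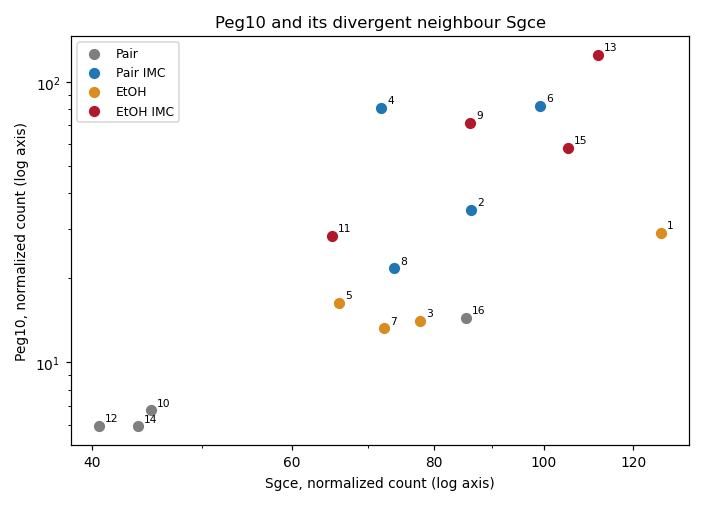
Normalized counts of Peg10 against Sgce (both log axes), 1 point per library with its number, coloured by group. At similar levels of Sgce, the libraries with IMC lie above those of the same diet without it. Pair library 16 is at 14.4 for Peg10 and 85.4 for Sgce, and Pair IMC library 2 at 34.9 for Peg10 and 86.3 for Sgce.

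Genes around the members and in the related lists below were read against all genes tested. Of all genes tested, 4.32% rose and 5.17% fell with IMC in pair-fed mice, and 10.4% rose and 11.1% fell with IMC in ethanol-fed mice. With ethanol, 6.33% rose and 5.53% fell without IMC, and 7.85% rose and 8.57% fell with IMC. On the deposited scale, where the median of all genes was shifted by 0.18 and 0.19 for ethanol without and with IMC, 93.4% and 87.8% of the called genes were higher with ethanol, against 53.4% and 47.8% here. Each call was repeated in 29 alternatives, or in 28 where a minimum mean of 100 removed the gene.

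Of the 12 genes listed around Peg10, 11 were tested. For IMC in pair-fed mice only Pon2, a lactonase gene, rose among them, by 0.41 (SE 0.10, adjusted p = 0.0196, limma), and none fell. For IMC in ethanol-fed mice 2 rose and 4 fell, which was 54.5% of the 11 against 21.5% of all genes. Those that fell included Ppp1r9a, an imprinted gene for a neuronal actin-binding protein (-1.02, SE 0.26, adjusted p = 0.0101), the collagen gene Col1a2 (-0.91, SE 0.20, adjusted p = 0.00448) and Gngt1 (-1.96, SE 0.58, adjusted p = 0.0242), and Pon2 rose by 0.50 (SE 0.10, adjusted p = 0.00278). The summed level of the 9 stellate cell and fibroblast markers was 5054 to 6042 in EtOH and 3381 to 4354 in EtOH IMC, and its part in the fall of Col1a2 was not tested. For ethanol with IMC, Casd1 fell (-0.56, SE 0.13, adjusted p = 0.0076), and no neighbour was called for ethanol without IMC in limma (0 of 11, against 11.9% of all genes). The pair-fed call of Pon2 was lost in 5 of 29 alternatives, and the call of Gngt1 in ethanol-fed mice in 5 of 28. Gngt1 had at most 3 reads in each EtOH IMC library. The neighbours' median IMC differences, -0.08 in pair-fed and -0.32 in ethanol-fed mice, stood beside medians of about 0 over all genes.

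**Figure D5:**
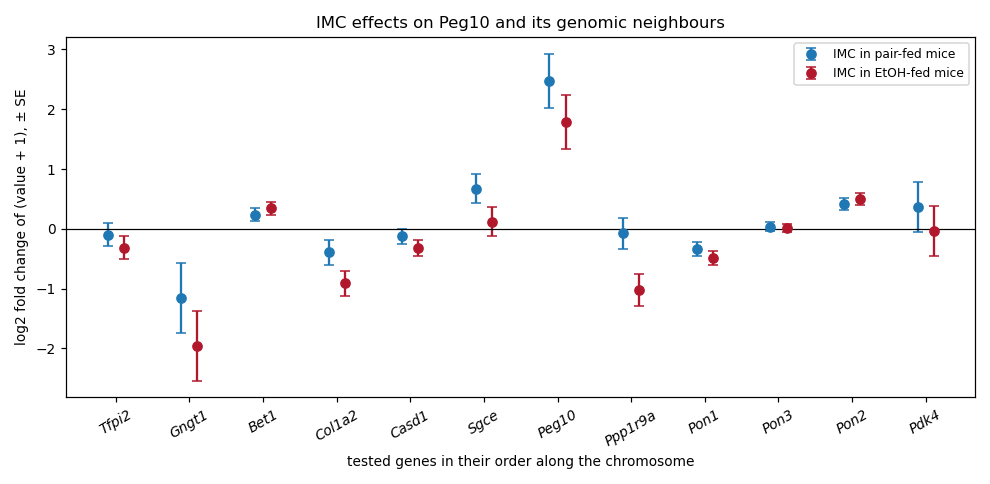
Log2 fold change of (value + 1) with its standard error for IMC in pair-fed and ethanol-fed mice, for Peg10 and the 11 neighbours tested in chromosomal order. Peg10 is at 2.48 and 1.79, its divergent neighbour Sgce at 0.67 and 0.12, and the next gene Ppp1r9a at -0.08 and -1.02.

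Around the other members, no gene was called in limma for IMC in pair-fed mice (0 of 14 beside Igf2 and H19 and 0 of 11 beside Peg3, Meg3, Afp and Gpc3, against 9.49% of all genes). Beside Igf2 and H19, 1 rose and 1 fell in each of the other 3 comparisons, which was 14.3% of the 14 against 21.5% of all genes for IMC in ethanol-fed mice, 11.9% for ethanol without and 16.4% with IMC. Cars, a cysteinyl-tRNA synthetase gene, fell by 0.90 with ethanol without IMC (SE 0.17, adjusted p = 0.00286, limma) and rose by 0.60 with IMC in ethanol-fed mice (SE 0.17, adjusted p = 0.017). Cd81, a surface protein gene of this region, rose by 0.34 with ethanol without IMC (SE 0.08, adjusted p = 0.0132). Cdkn1c, the imprinted cell cycle inhibitor of this region, lay between 12.7 and 48.6 in normalized counts and had an adjusted p between 0.18 and 0.77 in the 4 comparisons. Of the 11 genes beside Peg3, Meg3, Afp and Gpc3, 9.09% were called for IMC in ethanol-fed mice (1 fell), 18.2% for ethanol without IMC (1 rose and 1 fell) and 27.3% with IMC (2 rose and 1 fell). Gpc4, the glypican gene next to Gpc3, fell by 0.27 with IMC in ethanol-fed mice (SE 0.08, adjusted p = 0.0331), and Afm, the afamin gene of the albumin cluster, fell with ethanol, by 0.42 (SE 0.13, adjusted p = 0.0426) without and 0.55 (SE 0.13, adjusted p = 0.00847) with IMC. Phf6, a chromatin protein gene near Gpc3, rose with ethanol, by 0.46 (SE 0.14, adjusted p = 0.0405) and 0.73 (SE 0.14, adjusted p = 0.00245). Wdr25, near Meg3, rose with ethanol with IMC by 0.59 (SE 0.20, adjusted p = 0.049), a call lost in 20 of 28 alternatives. Hprt, a housekeeping gene near Gpc3, lay between 469.8 and 619.2 and had an adjusted p between 0.21 and 0.87. Of 29 alternatives, 15 lost the call of Afm without IMC, 10 that of Phf6 without IMC, 7 that of Gpc4 and 3 the rise of Cars, and the other calls of these genes named here held under every alternative. Usp29, named here after its values were seen, shares the Peg3 promoter letters shown above and had 4 reads in library 16 and none in the other 15.

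Among imprinted genes, the share called was near that of all genes for IMC in both diets. Of 71 listed, 47 were tested, of which 43 were not members. Whether the listed genes are imprinted in the adult liver was not tested. Among these, 3 rose and 1 fell with IMC in pair-fed mice, 4 rose and 5 fell with IMC in ethanol-fed mice, 6 rose and 2 fell with ethanol without IMC, and 2 rose and 3 fell with ethanol with IMC. These were 9.30%, 20.9%, 18.6% and 11.6% of the 43, against 9.49%, 21.5%, 11.9% and 16.4% of all genes. The medians of the 43 genes were 0.04, -0.15, 0.18 and 0.04. Zrsr1, which encodes a splicing factor and is paternally expressed, rose with IMC in both diets, by 0.49 (SE 0.13, adjusted p = 0.0249) and 0.51 (SE 0.13, adjusted p = 0.0098). Dhcr7, the last enzyme of cholesterol synthesis, fell in both, by 0.90 (SE 0.27, adjusted p = 0.0413) and 1.24 (SE 0.27, adjusted p = 0.00365). Airn, the noncoding RNA antisense to Igf2r, rose with IMC in pair-fed mice by 1.02 (SE 0.29, adjusted p = 0.0354) and with ethanol without IMC by 1.30 (SE 0.29, adjusted p = 0.00891). Impact, paternally expressed in mice, rose by 0.55 with IMC in ethanol-fed mice (SE 0.14, adjusted p = 0.0101). Snrpn, a gene of the Prader-Willi region, rose by 0.72 with ethanol without IMC (SE 0.17, adjusted p = 0.0111), and Jade1 fell with ethanol, by 0.51 (SE 0.14, adjusted p = 0.0302) without and 0.54 (SE 0.14, adjusted p = 0.0175) with IMC. The pair-fed call was lost in 17 of 29 alternatives for Dhcr7, DESeq2 and edgeR included, in 13 of 28 for Airn, edgeR included, and in 7 of 29 for Zrsr1. The fall of Jade1 was lost in 7 of 29 alternatives without and in 2 with IMC, and the other calls given for these 6 genes held under every alternative. Whether reads were counted by strand is not stated, so that reads of Airn cannot be told apart from those of Igf2r. No listed gene of any kind was called for the difference between the IMC effects in limma, where 139 of all genes were; 1914 genes had an unadjusted p under 0.05.

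Of the factors that keep imprints and DNA methylation, 22 of 25 were tested. None was called for IMC in pair-fed mice or for ethanol without IMC in limma. In ethanol-fed mice 2 rose and 5 fell with IMC, which was 31.8% of the 22 against 21.5% of all genes. Those that fell included Uhrf1, which guides the maintenance of DNA methylation (-1.71, SE 0.47, adjusted p = 0.0161), Zfp57, a zinc finger protein that protects imprints (-1.25, SE 0.41, adjusted p = 0.0375), and the de novo methyltransferase gene Dnmt3b (-0.76, SE 0.26, adjusted p = 0.0411). Dnmt3a fell by 0.47 (SE 0.13, adjusted p = 0.0205), Atrx by 0.34 (SE 0.10, adjusted p = 0.0308) and Suz12 by 0.33 (SE 0.09, adjusted p = 0.0258) with ethanol with IMC, where 3 fell and none rose (13.6%, against 16.4% of all genes). Of 28 alternatives, 1 lost the call of Uhrf1 and 9 each those of Zfp57 and Dnmt3b, and of 29, 5 each lost the calls of Dnmt3a and Suz12 and 10 that of Atrx. Uhrf1 and Zfp57 were low, with group means of 18.1 and 10.5 normalized counts in EtOH and 4.92 and 3.45 in EtOH IMC. Markers of some other cells were also lower in EtOH IMC than in EtOH, whereas the endothelial, Kupffer cell, mesothelial and bile duct sums overlapped between these groups. The summed level of the 8 markers of dividing cells, in which Uhrf1 is known to be expressed, was 127 to 417 in EtOH and 60.8 to 73.5 in EtOH IMC. That of the 7 erythroid markers was 153 to 416 and 81.4 to 151, with 1 of the 7 at 0 in each group, and that of the 5 lymphoid markers was 176 to 229 and 93.4 to 133. In limma, 0 of 5 tested markers of dividing cells, 2 of 5 erythroid and 1 of 2 lymphoid ones were called lower with IMC in ethanol-fed mice. The part of these cells in the falls with IMC was not tested. DNA methylation itself was not measured in these livers.

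None of the 3 repressors known to silence Afp after birth was called in limma. Zhx2, the product of the classical Afp regulator locus, had mean normalized counts of 162.8 ± 20.3, 206.0 ± 17.2, 182.6 ± 19.2 and 168.9 ± 21.5 in Pair, Pair IMC, EtOH and EtOH IMC (SD, n = 4), and its adjusted p in limma was 0.0729 for IMC in pair-fed mice and 0.517 for IMC in ethanol-fed mice. Zbtb20 and Zfhx3, the other postnatal repressors of Afp, had adjusted p between 0.10 and 0.78 in the 4 comparisons. Of 25 tested regulators and liver transcription factors, 2 rose and 2 fell with IMC in either diet, which was 16% against 9.49% of all genes in pair-fed and 21.5% in ethanol-fed mice. Hnf4a, a master regulator of hepatocytes, rose with IMC by 0.71 (SE 0.13, adjusted p = 0.00323) in pair-fed and 0.62 (SE 0.13, adjusted p = 0.00299) in ethanol-fed mice. Foxa3 rose with IMC by 0.36 (SE 0.11, adjusted p = 0.0424) and 0.71 (SE 0.11, adjusted p = 0.000272), and fell with ethanol by 0.77 without and 0.42 with IMC (adjusted p = 0.000527 and 0.0144). Foxa2 fell with IMC in pair-fed mice by 0.74 (SE 0.21, adjusted p = 0.0362), and Nfix by 0.41 (SE 0.11, adjusted p = 0.0223). Nfia fell with IMC in ethanol-fed mice by 0.41 (SE 0.11, adjusted p = 0.013), and Onecut1 rose with ethanol with IMC by 1.23 (SE 0.34, adjusted p = 0.0194). The calls of Hnf4a and Nfia held under every alternative; of 29 alternatives, 16 lost the pair-fed call of Foxa3, 9 that of Foxa2, 3 that of Nfix, 3 that of Onecut1 and 2 the fall of Foxa3 with ethanol with IMC.

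In the insulin-like growth factor pathway, to which Igf2 belongs, 2 of 19 tested genes fell and none rose with IMC in pair-fed mice (10.5%, against 9.49% of all genes), and 5 fell and none rose with IMC in ethanol-fed mice (26.3%, against 21.5%). The medians of the 19 genes were -0.08 and -0.23. Igfals, which holds the circulating growth factor complex together, fell by 0.79 (SE 0.16, adjusted p = 0.00699) and 0.76 (SE 0.16, adjusted p = 0.00363). Igf1, the adult counterpart of Igf2, fell by 0.56 in pair-fed mice (SE 0.14, adjusted p = 0.0224), from 5122 ± 1199 to 3433 ± 483 normalized counts (SD, n = 4). Igfbp3 fell by 1.02 (SE 0.28, adjusted p = 0.017) and Ghr, the growth hormone receptor, by 0.74 (SE 0.10, adjusted p = 0.000144) with IMC in ethanol-fed mice. Igf2r, which clears Igf2 from the cell surface, rose with ethanol with IMC by 0.31 (SE 0.10, adjusted p = 0.0413), with the same limit on its reads as Airn. Irs2, an adaptor of the insulin and growth factor receptors, fell with ethanol without IMC by 0.96 (SE 0.28, adjusted p = 0.0323), and the binding protein gene Igfbp2 fell with ethanol with IMC by 0.68 (SE 0.21, adjusted p = 0.0321). The calls of Igfals and Ghr held under every alternative; of 29, 2 lost that of Igfbp3, 5 that of Igf1, 7 that of Irs2, 9 that of Igfbp2 and 12 that of Igf2r.

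Of 26 other genes of fetal and progenitor liver cells that were tested, none rose and 5 fell with IMC in pair-fed mice (19.2%, against 9.49% of all genes), and 2 rose and 3 fell with IMC in ethanol-fed mice (19.2%, against 21.5%). Their median differences were -0.37 and 0.00. Cd24a, a surface marker of progenitors, fell with IMC in pair-fed mice by 1.95 (SE 0.51, adjusted p = 0.0227), and Aldoc, the brain-type aldolase, fell in both diets, by 0.996 (SE 0.24, adjusted p = 0.0166) and 1.05 (SE 0.24, adjusted p = 0.00552). Cyp3a16, a cytochrome of the fetal and young liver, fell from 4017 ± 1077 to 308.0 ± 144.3 normalized counts (SD, n = 4; adjusted p = 0.00922) in pair-fed mice and from 2962 ± 1152 to 22.2 ± 23.1 (adjusted p = 8.74e-06) in ethanol-fed mice, although reads of this gene may be shared with its close paralogs. With ethanol 5 rose and 2 fell without IMC, and 6 rose and 1 fell with it (26.9% in each, against 11.9% and 16.4% of all genes), while the medians were -0.12 and 0.24. Those that rose in both included Scd2 (1.05 and 1.30, SE 0.18) and Lgals1 (1.07 and 0.78, SE 0.19), each with an adjusted p under 0.05 in limma. Among those that fell with ethanol, Cd24a had a mean of 233.7 in Pair and 88.3 in EtOH, a call lost in 12 of 29 alternatives. Cyp3a16 fell with ethanol with IMC, from a mean of 308.0 in Pair IMC to 22.2 in EtOH IMC, and this call held under every alternative. Prom1, a marker of progenitors, rose with ethanol without IMC by 1.76 (SE 0.32, adjusted p = 0.00255) and fell with IMC in ethanol-fed mice by 1.11 (SE 0.32, adjusted p = 0.0203). Golm1, a Golgi protein that is raised in liver disease, rose with ethanol with IMC by 1.06 (SE 0.21, adjusted p = 0.00302), and Krt7, a keratin of bile ducts, fell with IMC in pair-fed mice by 1.52 (SE 0.44, adjusted p = 0.0386). The pair-fed call was lost in 4 of 29 alternatives for Cd24a, 7 of 28 for Krt7, 2 of 28 for Aldoc and 1 of 29 for Cyp3a16, and the fall of Prom1 in 2 of 29. The summed level of the 7 bile duct markers was 914 to 1390 in Pair and 824 to 915 in Pair IMC, and its part in the changes of Cd24a and Krt7 was not tested.

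Among the proteoglycan genes related to Gpc3, 13 non-members were tested, and 2 fell and none rose with IMC in pair-fed mice, 5 fell and none rose with IMC in ethanol-fed mice, and 4 rose and none fell with ethanol both without and with IMC. These were 15.4%, 38.5%, 30.8% and 30.8% of the 13, against 9.49%, 21.5%, 11.9% and 16.4% of all genes. Sdc1, the main syndecan of hepatocytes, fell with IMC by 0.49 (SE 0.10, adjusted p = 0.00843) and 0.44 (SE 0.10, adjusted p = 0.00629) and rose with ethanol by 0.65 (SE 0.10, adjusted p = 0.00126) and 0.70 (SE 0.10, adjusted p = 0.000404). Sulf2, which trims the sulfates of heparan sulfate chains, fell with IMC by 0.59 and 0.75 and rose with ethanol by 0.78 and 0.63 (SE 0.17, adjusted p between 0.005 and 0.04 in limma). Gpc1, another glypican gene, rose with ethanol without IMC by 1.10 (SE 0.33, adjusted p = 0.0377), Sdc2 rose with ethanol with IMC by 0.36 (SE 0.10, adjusted p = 0.0227), and Notum, an enzyme that acts on Wnt proteins held by glypicans, fell with IMC in ethanol-fed mice by 0.46 (SE 0.14, adjusted p = 0.0275). The call of Gpc1 was lost in 7 of 28 alternatives. Of 29, 7 lost the fall of Sulf2 in pair-fed mice and 4 its rise with ethanol with IMC, 6 each lost the calls of Sdc2 and Notum, and quantile normalization lost the fall of Sdc1 in ethanol-fed mice. The summed level of the 9 stellate cell and fibroblast markers, cells that also make proteoglycans, was 5054 to 6042 in EtOH and 3381 to 4854 in the other 3 groups, and its part in these results was not tested. Of the retrotransposon-derived relatives of Peg10, 17 of the 29 listed symbols were in the table, only 3 beside Peg10 were tested, and none of the 3 was called.

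The 3 genes whose pattern over the 16 libraries was most like that of Peg10, by the mean absolute difference of log2(value + 1) after each gene was centred, were Tuba8 (0.51), Ephx1 (0.53) and Spaca6 (0.55), against a median of 1.13 over the 12537 genes compared. A gene with the same value in every library would stand at 1.12, the mean absolute deviation of Peg10 from its own mean. Of the members, Peg3 was the nearest to Peg10 (0.82) and H19 the farthest (1.77). Tuba8, an alpha tubulin gene, had mean normalized counts of 17.8 ± 7.81 in Pair, 107.4 ± 41.9 in Pair IMC, 41.4 ± 14.5 in EtOH and 130.6 ± 28.3 in EtOH IMC (SD, n = 4). Ephx1, the microsomal epoxide hydrolase gene, had 1608 ± 290, 5922 ± 1550, 4781 ± 276 and 12809 ± 4750, and Spaca6 had 62.9 ± 26.4, 259.8 ± 48.1, 85.1 ± 26.5 and 205.0 ± 9.95. These 3 genes were picked for their likeness to Peg10, so that their differences are given without a test. Like Peg10, each was higher in each library with IMC than in each library without it in pair-fed mice.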

How the data were processed

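Liver RNA of 16 mice was sequenced from directional libraries. Per the labels the authors trimmed reads with Trim Galore 0.3.3, checked them with FastQC 0.11.3 and aligned them with STAR 2.5.2a_modified to mm10. The tool that counted reads and its strand setting are not given in the sources used here. The signal values deposited by the authors are read counts divided by 1 size factor per library. The table's 27212 rows hold 24082 Ensembl IDs, 430 of them with several symbols and equal values. In each library 100% of values were within 0.01 of whole reads.

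Because the deposited factors differ in level between the diets, whole reads were rescaled by a median ratio over the 16 libraries. Genes with at least 10 in at least 4 libraries (12543) were tested on log2(value + 1) in limma 3.58.1 (R 4.3.3). The model held 1 mean per group and a trended prior variance. Tests were two-sided, and p-values were adjusted over all genes tested by Benjamini-Hochberg, with a threshold of 0.05. The contrasts were made: IMC within each diet, ethanol with and without IMC, and the difference of the IMC effects. The fit was tested on simulated data. Alternatives were the deposited scale, quantile normalization, pseudocounts of 0.1 and 5, no filter, a mean of at least 100, only the libraries compared, no trend, count tests on whole reads in DESeq2 1.42.0 and edgeR 4.0.16 (TMM and upper quartile), and leaving out each library; the fits without libraries 16 and 11, and edgeR without library 15, where 1 deposited read is worth 1.01, were chosen after seeing the data. The floor for low genes was 3 reads per library, which covers counting error only, since reads carry no molecular identifiers.

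Members and gene lists were chosen with earlier results of these data known. The genes named were the members, Zhx2, Zbtb20, Zfhx3, Alb, Sgce, Dlk1, Cdkn1c, Igf1, Igf2r and Hprt, from each list up to 3 called genes with the largest change per two-group comparison, and the 3 genes most like Peg10. Ddc, Cobl and Slc22a18 were picked by this rule and are counted among the named genes but not described above. Some calls of genes that are described were also left out, such as those of Foxa2 for ethanol with IMC and of Cd81 for IMC in ethanol-fed mice. Positions and exon lengths are from GENCODE vM21 (24069 IDs matched). Mice are the replicates, as far as the labels show separate animals.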

Additional observations from a re-analysis of the deposited data

Results flagged for a closer look

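Libraries that stood apart were sought in each group of 4 by Dixon's ratio, the gap of the highest or lowest library to the nearest other as a share of the group's range, against its 95% critical value. Of 277 groups of the members and named genes, 21 passed it, and about 1 in 20 does so by chance. Members did so in 4 of 28 groups. Since the members were chosen after the levels of H19 and the response of Peg10 had been seen, nothing is read from this count.

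H19 in Pair had a ratio of 0.95, with library 16 at 165.7 normalized counts and the others at 9.01 to 16.8. H19 in EtOH IMC had a ratio of 0.973, with library 11 at 154.2 and the others at 3.82 to 7.83. Peg10 in Pair had a ratio of 0.902, with library 16 at 14.4 and the others at 5.93 to 6.76, and its neighbour Sgce in Pair had a ratio of 0.90, again from a high library 16. Library 16 was thus the high library for 3 of these genes, and also for Suz12 in Pair (0.8291). Peg3 in Pair IMC had a ratio of 0.848, from library 4 at 506.1 against 397.2 to 413.8.

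Of the other named genes, the ratio was 0.976 for Cars in Pair IMC (library 2 high), 0.91 for Phf6 in Pair IMC (library 2 low), 0.852 for Nfix and 0.842 for Spaca6 in Pair IMC (library 8 low in both), and 0.905 for Wdr25 in Pair (library 12 high). In EtOH it was 0.891 for Golm1 and 0.909 for Zbtb20 (library 5 high in both), 0.843 for Gpc1 (library 3 low), and 0.879 for Gpc4 and 0.86 for Nfix (library 7 low in both). In EtOH IMC it was 0.863 for Atrx and 0.978 for Suz12 (library 15 low in both), 0.844 for Onecut1 (library 9 high), 0.925 for Sdc2 (library 11 low) and 1 for Dlk1, which rests on a single read in library 9.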

How the results depend on the processing

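No paired analysis was possible because the groups share no replicate numbers. The calls of members follow from contrasts known when they were chosen, so that the values on members are a description. The IMC difference of Peg10 lay between 2.05 and 2.84 on the log2 scale in pair-fed and between 1.45 and 2.16 in ethanol-fed mice over 28 alternatives, and a minimum mean of 100, which removed Peg10, left 1 member called for IMC in each diet. For IMC in pair-fed mice Peg3 was not called without Pair library 12 or 14 or Pair IMC library 4 or 6, and for ethanol with IMC without Pair IMC library 6 or EtOH IMC library 9 or 13. On the deposited scale 1 member (Peg3) was called for ethanol without IMC and 2 (Peg3 and Meg3) with IMC, and 3000 and 3624 genes in all. Without libraries 16 and 11, which were left out after their H19 values were seen, 2 members (Peg10 and H19) were called for ethanol without IMC. In edgeR without library 15, 3 members (H19, Peg10 and Peg3) were called for IMC in ethanol-fed mice. Leaving out 1 library gave 1 to 2 members and 537 to 1443 genes for IMC in pair-fed mice, 0 to 1 members and 802 to 1595 genes for ethanol without IMC, 0 to 1 members and 1364 to 2213 genes for ethanol with IMC, and 54 to 159 genes for the difference of the IMC effects. In pair-fed mice the count of genes fell most without Pair IMC library 4 (537) or 6 (543). For ethanol without IMC it fell most without EtOH library 5 (802) or Pair library 14 (974), and for ethanol with IMC without EtOH IMC library 15 (1364). Only the libraries compared gave 691 genes for IMC in pair-fed mice, and edgeR without library 15 gave 1348 for ethanol with IMC. The difference of the IMC effects gave 80 genes with no filter, 82 with no trend, 340 in DESeq2 and 73 in edgeR without library 15. The causes were not tested. With a floor of 5 reads, 1 group of a member (Igf2 in Pair) lay wholly at or under the floor, and with 3 reads none did. Of 88 calls of named genes, 40 held under every alternative and 48 were lost in at least 1, and none changed sign. The 3 genes most like Peg10 stayed the same without library 15 and on the deposited scale. Depth limits what can be said of Igf2, Gpc3 and Meg3, which had at most 11, 29 and 30 reads in any library. It also limits the comparisons of H19, with 4 to 7 reads per library in EtOH, and of Peg10, with 5 to 14 in Pair.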
